A study of Homo sapiens with 4 samples.

Results

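Chromosome 8 held 2661 of the 66131 H3K9ac regions called in T98G cells, 1422 of 39303 in the RBBP4 knockdown library and 1239 of 26828 in the control library. The members are all chromosome 8 rows of both lists. T98G is an established human glioblastoma cell line, used at passage 4. The cells had been transduced with a lentivirus for an shRNA against RBBP4 (shRBBP4) or for the control NT shRNA (shNT), and each shRNA is represented by 1 library from ChIP-seq (chromatin immunoprecipitation and sequencing) for H3K9ac, histone H3 acetylated at lysine 9. How many shRNA sequences or clones stand behind each population is not stated in the labels, and RBBP4 itself was not measured in the files used here. The question is where H3K9ac regions of this chromosome differ between shRBBP4 and shNT cells.

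H3K9ac marks active promoters and enhancers and is removed by histone deacetylases. RBBP4 is a WD-repeat protein that binds histones and is a subunit of several chromatin complexes, among them the deacetylase complexes NuRD and Sin3, Polycomb repressive complex PRC2 and the chromatin assembly factor CAF-1. The long arm of chromosome 8 carries the oncogene MYC towards its distal end. MYC encodes a transcription factor that drives growth and proliferation.

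The arms, 8p and 8q, were divided inside the widest stretch between 40 and 50 Mb without a region in either list, which lay at chr8:42997668-47037576 on hg19 and spans the centromere. The long arm was further split at 120 Mb into proximal and distal 8q, and MYC lies on the distal side. Chromosome 8 was chosen by its low ratio of shRBBP4 to shNT regions, most of all among high scores, so region numbers and ranks are a description and carry no test. The number of reads behind either list is unknown, and a difference in the number of regions cannot be told apart from a difference in depth or threshold. Regions are given by position, because no gene annotation of hg19 was at hand.

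The ratio was lower on 8p and proximal 8q than on distal 8q. On 8p there were 421 regions in shRBBP4 and 386 in shNT (ratio 1.09, interval 0.948 to 1.26, an exact 95% interval for counting error). On proximal 8q there were 556 in shRBBP4 and 519 in shNT (ratio 1.07, interval 0.949 to 1.21). On distal 8q there were 445 in shRBBP4 and 334 in shNT (ratio 1.33, interval 1.15 to 1.54). The other chromosomes together had 37881 regions in shRBBP4 and 25589 in shNT (ratio 1.48, interval 1.457 to 1.504). The ratio of distal 8q was thus nearer to that of the other chromosomes than the ratios of 8p and proximal 8q were. The intervals do not test this, because the chromosome was chosen by its ratio and regions that lie in groups were counted as independent. In order of their ratio, chromosome 8 as a whole was the third lowest of 23 chromosomes at 1.15, between chromosome 13 at 1.10 and chromosome 16 at 1.17.

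Covered length separated the stretches further. Regions of proximal 8q covered 165 kb in shRBBP4 and 181 kb in shNT (ratio 0.913), although they were more numerous in shRBBP4. Regions of 8p covered 111 kb in shRBBP4 and 106 kb in shNT (ratio 1.04). Distal 8q was covered by 137 kb in shRBBP4 and 100.1 kb in shNT (ratio 1.37), and the other chromosomes had a ratio of 1.53. Widths differed in the same way along the arm. The median width on proximal 8q was 199 bp for shRBBP4 and 238 bp for shNT, whereas on distal 8q it was 236 bp for shRBBP4 and 220 bp for shNT. Those wider than 1 kb numbered 15 in shRBBP4 (2.70%) and 27 in shNT (5.20%) on proximal 8q. On distal 8q they numbered 14 in shRBBP4 (3.15%) and 4 in shNT (1.20%). Over all chromosomes they made up 2.62% in shRBBP4 and 2.14% in shNT, so on proximal 8q the shRBBP4 share was near that of its list.

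**Figure D1:**
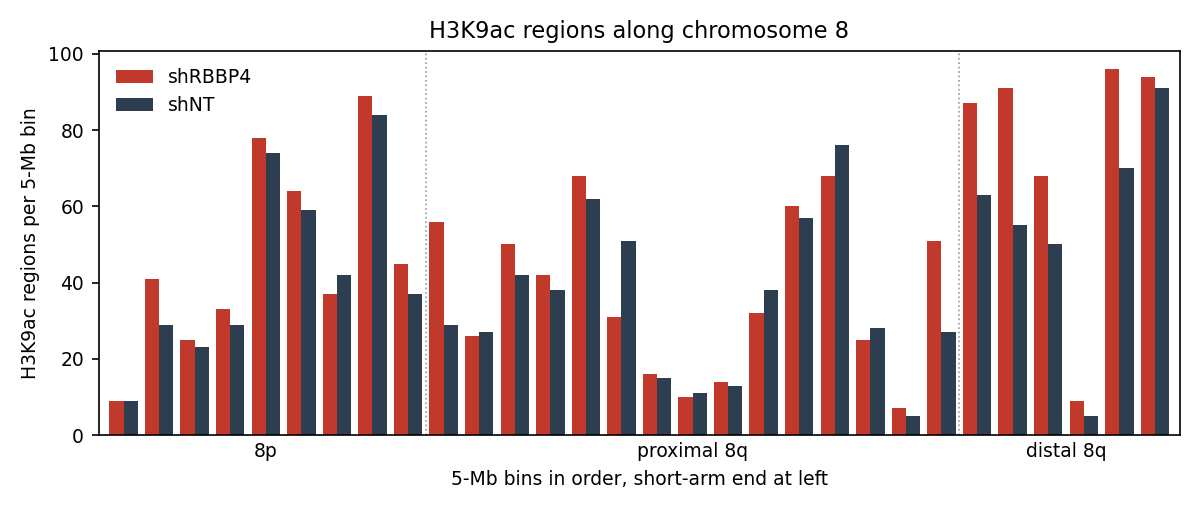
Number of H3K9ac regions per 5-Mb bin of chromosome 8, in order from the short-arm end, in shRBBP4 and shNT (1 library each; the dotted lines divide 8p, proximal 8q and distal 8q). The shRBBP4 bar is lower in 6 of the 24 bins with at least 40 regions, and distal 8q holds the tallest shRBBP4 bar, with 96 regions.

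Of the 24 bins of 5 Mb that held 40 or more regions in all, 21 had a ratio below that of the whole lists, 1.465; over all chromosomes 52.7% of 465 bins did. The bins above it were at both ends of proximal 8q and in distal 8q. They had 56 regions in shRBBP4 and 29 in shNT from 45 to 50 Mb, 51 in shRBBP4 and 27 in shNT from 115 to 120 Mb, and 91 in shRBBP4 and 55 in shNT from 125 to 130 Mb. All 8 counted bins of 8p lay below the whole-list ratio, within a range of 0.881 to 1.41. So did 9 of 11 on proximal 8q and 4 of 5 on distal 8q. The distal bin from 145 to 150 Mb had 94 regions in shRBBP4 and 91 in shNT (ratio 1.03, interval 0.766 to 1.39). The shRBBP4 list had fewer regions than the shNT list in 6 of the 24 bins, against 6.88% of bins over all chromosomes. Of these 6 bins, 1 was on 8p, from 30 to 35 Mb, where shRBBP4 had 37 regions and shNT 42. The other 5 were on proximal 8q, and 3 of them lay between 90 and 110 Mb.

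Regions found in both libraries were then compared by their place in their own list. A matched pair consists of 1 region of each library, each being the other's largest overlap, and percentile 100 is the highest score of a list. Chromosome 8 had 714 pairs of 17700 in all. Their median percentile was 59.7 in shRBBP4 and 64.9 in shNT, and the median difference, shRBBP4 minus shNT, was -1.22 points (-3.32 to 0.640, a 95% order-statistic interval of the median over pairs, which are not replicates). On the other chromosomes the median percentile of a paired region was 71.8 in shRBBP4 and 59.5 in shNT, and the median difference was 5.74 points (5.32 to 6.10). The lists differ in length, so a difference of 0 has no special meaning and each value is read against that of the other chromosomes. Pairs at least 20 points lower in shRBBP4 made up 25.9% of those on chromosome 8 (185 of 714), against 15.6% over all chromosomes. Pairs at least 20 points higher in shRBBP4 made up 21.0% (150 of 714), against 30.8% over all chromosomes.

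The difference in rank also divided the chromosome. The median difference was -3.64 points over 226 pairs of 8p (-8.40 to 1.70), -4.89 points over 277 pairs of proximal 8q (-7.92 to -2.35) and 3.06 points over 211 pairs of distal 8q (1.46 to 6.84). Pairs at least 20 points lower in shRBBP4 made up 28.8% on 8p, 30.3% on proximal 8q and 17.1% on distal 8q. By this measure distal 8q lay near the 15.6% of all chromosomes. In all 5 bins of distal 8q with at least 10 pairs the median difference was above 0. In 15 of the other 19 such bins of the chromosome it was below 0, against 21.7% of bins over all chromosomes. Read against the 5.74 points of the other chromosomes, most distal bins were low too. Only the bin from 130 to 135 Mb, at 6.73 points, exceeded that value, and the rest lay between 0.640 and 4.44 points. The sign on distal 8q depended on how ranks were taken: its median difference was -1.65 points in lists of equal length and -1.47 with ranks among matched pairs alone, where 4 of its 5 bins were below 0. Width gave the same order: the shRBBP4 region was the narrower of the pair in 54.4% of pairs on 8p, 64.6% on proximal 8q and 39.8% on distal 8q, against 38.5% over all chromosomes.

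**Figure D2:**
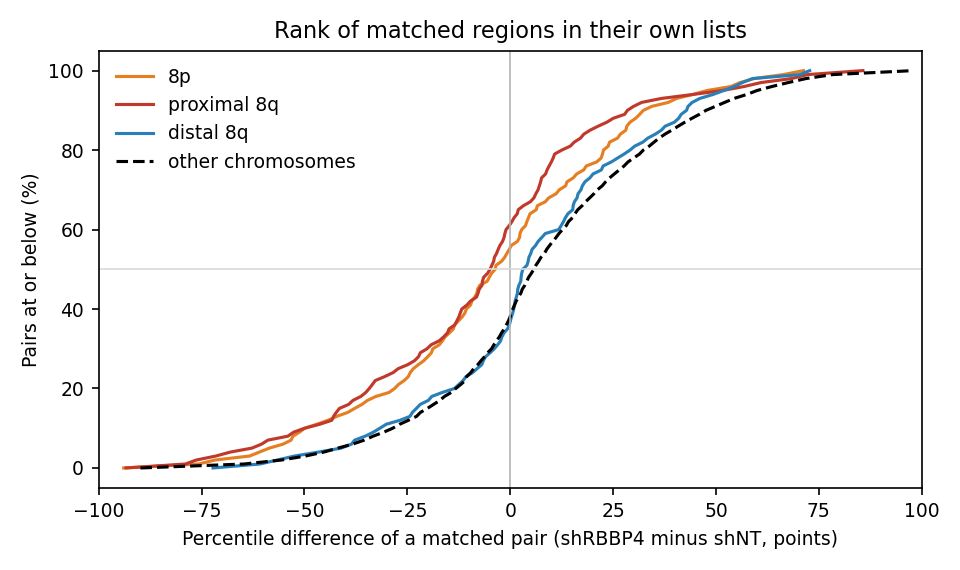
Cumulative share of matched pairs by percentile difference, shRBBP4 minus shNT, for 8p (226 pairs), proximal 8q (277), distal 8q (211) and the other chromosomes (16986). The curves of 8p and proximal 8q lie to the left, with medians of -3.64 and -4.89 points, while distal 8q runs close to the other chromosomes (medians 3.06 and 5.74 points).

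The pair difference of chromosome 8 lay below that of the other chromosomes at every level of rank in shNT. Up to percentile 25 in shNT its median was 28.3 points, against 37.6 on the other chromosomes. Between percentiles 25 and 50 it was 6.81 against 21.3, between 50 and 75 it was -2.74 against 5.94, between 75 and 90 it was -13.3 against -1.65, and above 90 it was -8.26 against -1.85. Among pairs above percentile 90 in shNT, the shRBBP4 partner was also above percentile 90 in 6 of 21 on 8p (28.6%), 28 of 68 on proximal 8q (41.2%) and 20 of 36 on distal 8q (55.6%), against 61.9% of 2386 on the other chromosomes. Among pairs between percentiles 75 and 90 in shNT, the median difference was -25.1 points on 8p, -12.7 on proximal 8q and -0.750 on distal 8q, against -1.65 on the other chromosomes.

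The short arm held few strong regions in the shRBBP4 list. Only 7 of its 421 shRBBP4 regions (1.66%, exact interval 0.671 to 3.396) stood above percentile 90, against 9.75% of the whole list. In shNT 24 of the 386 regions of 8p did so (6.22%, 4.02 to 9.11), against 10.1% of that list. Chromosome X was alike, with 6 of 466 regions in shRBBP4 (1.29%) and 21 of 389 in shNT (5.40%). The shRBBP4 shares were higher on chromosome 7 (10.1%) and chromosome 16 (7.71%). On proximal 8q the shares were 9.53% in shRBBP4 and 13.5% in shNT. On distal 8q they were 7.87% in shRBBP4 and 12.0% in shNT, so distal 8q also held a smaller share of strong regions in shRBBP4 than in shNT, and its interval in shRBBP4 (5.54 to 10.8) overlapped that in shNT (8.70 to 15.9).

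Taking the same number of strongest regions from each list removes the difference in list length. Among the strongest 1000 of each list, 8p had 0 regions in shRBBP4, which allows a share of up to 0.300%, and 7 in shNT. Proximal 8q had 9 in shRBBP4 and 34 in shNT, and distal 8q had 6 in shRBBP4 and 10 in shNT. Among the strongest 5000, 8p had 17 in shRBBP4 and 58 in shNT, proximal 8q had 67 in shRBBP4 and 126 in shNT, and distal 8q had 49 in shRBBP4 and 67 in shNT. The ratio at this depth was 0.293 on 8p (0.160 to 0.510), 0.532 on proximal 8q (0.389 to 0.721) and 0.731 on distal 8q (0.495 to 1.07). The last interval included equal numbers. Among the strongest 20000 the ratio of distal 8q was 0.966 (0.8004 to 1.16), while that of 8p was 0.636 (0.524 to 0.770) and that of proximal 8q 0.658 (0.558 to 0.774).

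**Figure D3:**
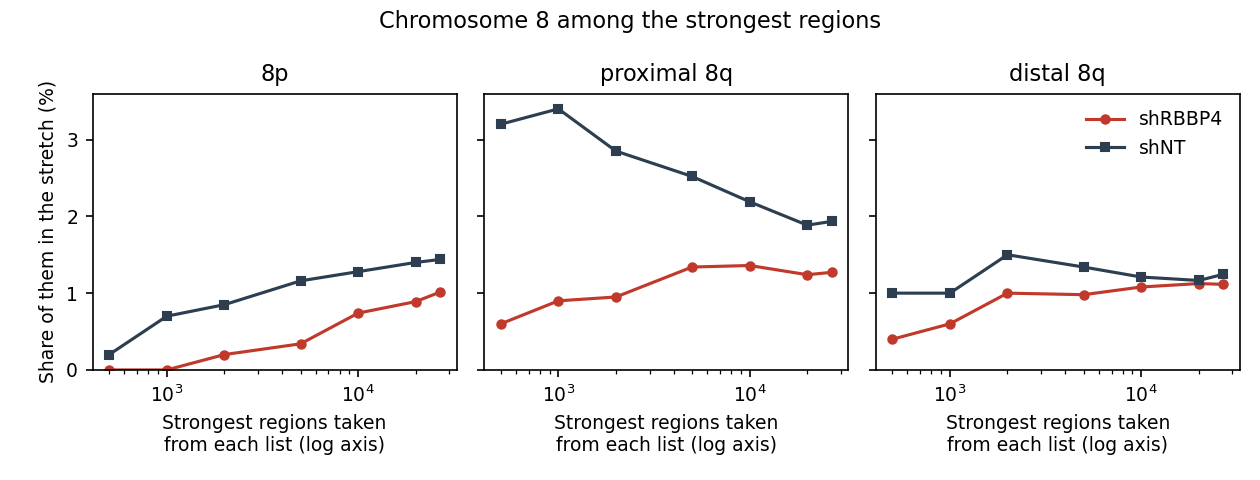
Share of the strongest regions of each list, from the strongest 500 to 26828 (log axis), that lay on 8p, proximal 8q and distal 8q, in shRBBP4 and shNT. The shRBBP4 curve lies below the shNT curve in all panels and comes closest to it on distal 8q, at 1.13% against 1.17% of the strongest 20000.

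The highest-scoring regions of the chromosome lay on 8q in both libraries, and most were found in both. The top region of either list was at the same place. In shRBBP4 it lay at chr8:67974390-67974587 and stood at rank 37 of its list, and in shNT it lay at chr8:67973634-67974574 and stood at rank 14. The next regions of the shRBBP4 list had shNT partners of similar standing. They lay at chr8:62623797-62627038, at chr8:146277903-146278651, at chr8:74205932-74206086 and at chr8:128748591-128749874, at percentiles between 98.9 and 99.2 in shRBBP4, and the best overlapping shNT regions stood between 98.8 and 98.98. The next regions of the shNT list stood lower in shRBBP4. The region at chr8:99056502-99057743 overlapped a region at percentile 91.5 in shRBBP4 and stood at 99.8 in shNT. That at chr8:109259546-109260911 had 93.5 in shRBBP4 and 99.7 in shNT, that at chr8:107669854-107670162 had 86.4 in shRBBP4 and 99.6 in shNT, and that at chr8:61430057-61431052 had 87.1 in shRBBP4 and 99.4 in shNT. All 4 lie on proximal 8q, and 3 of them between 90 and 110 Mb.

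The region at chr8:62623797-62627038 was the widest of the chromosome in shRBBP4, at 3242 bp, and its shNT partner, at chr8:62623744-62626659, was the widest there, at 2916 bp. In all, 2 shNT regions covered 95.4% of the shRBBP4 region. The second widest in shRBBP4, at chr8:119121256-119123842, measured 2587 bp, and 3 shNT regions covered 86.2% of it. The second widest in shNT, at chr8:48648111-48649871, measured 1761 bp, of which 94.0% was covered in shRBBP4. The third widest in shRBBP4, on distal 8q at chr8:128750602-128752453, spanned 1852 bp and was 17.1% covered in shNT. The third widest in shNT, on 8p at chr8:30583586-30585144, spanned 1559 bp and was 87.6% covered in shRBBP4, where its partner stood at percentile 71.8 against 95.6 in shNT.

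Some pairs stood at opposite ends of the lists. The largest fall in percentile was on 8p, where the region at chr8:22525564-22525846 stood at percentile 3.41 in shRBBP4 and its partner at chr8:22525350-22525896 at 97.3 in shNT. On proximal 8q the region at chr8:97247122-97247359 stood at 0.860 in shRBBP4 and its partner at chr8:97247100-97247521 at 94.2 in shNT. The 10 largest falls were between 75.6 and 93.9 points, 3 of them on 8p and 7 on proximal 8q, and the shRBBP4 region was the narrower in 9 of the 10. The 5 largest rises were between 72.0 and 85.7 points, all on 8q and 1 of them on distal 8q. The largest rise was at chr8:49321342-49321875, at percentile 93.1 in shRBBP4, with a partner at chr8:49321426-49321773 at 7.37 in shNT. These pairs are the extremes of 714 and have no replicate check.

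The shares of overlapping regions depend on the region numbers by which the chromosome was chosen, so they are no separate result. Regions with an overlap numbered 250 in shRBBP4 and 245 in shNT on 8p. They numbered 345 in shRBBP4 and 313 in shNT on proximal 8q, and 230 in shRBBP4 and 249 in shNT on distal 8q. In shRBBP4, 59.4% of regions had an overlap of at least 1 bp with shNT on 8p, 62.1% on proximal 8q and 51.7% (46.9 to 56.4) on distal 8q, against 49.7% on the other chromosomes. In shNT, 63.5% had such an overlap with shRBBP4 on 8p, 60.3% on proximal 8q and 74.6% (69.5 to 79.1) on distal 8q, against 77.6% on the other chromosomes. As a whole, chromosome 8 had the third lowest shared share of shNT regions among 23 chromosomes, 65.1%, and the third highest of shRBBP4 regions, 58.0%. Regions with no counterpart within 1 kb made up 19.6% of those in shRBBP4, against 25.7% of the whole list, and 12.9% of those in shNT, against 6.24% of the whole list.

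When regions of both libraries at most 1 kb apart were merged, chromosome 8 had 715 joint clusters. Both libraries held 424 of them, shRBBP4 alone 184 and shNT alone 107. Clusters of shRBBP4 alone made up 25.7%, against 35.0% over all chromosomes, and clusters of shNT alone 15.0%, against 7.26% over all chromosomes. Of 232 clusters on 8p, shRBBP4 alone held 56 (24.1%) and shNT alone 44 (19.0%). Of 274 on proximal 8q, shRBBP4 alone held 67 (24.5%) and shNT alone 43 (15.7%). Of 209 on distal 8q, shRBBP4 alone held 61 (29.2%) and shNT alone 20 (9.57%). Distal 8q was thus the nearest of these stretches to both shares over all chromosomes. Most clusters of 1 library alone were a single region, 137 of 184 in shRBBP4 and 82 of 107 in shNT. Within clusters held by both, the shRBBP4 regions covered fewer base pairs in 66 of 132 on 8p, 111 of 164 on proximal 8q and 32 of 128 on distal 8q, against 27.9% over all chromosomes.

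**Figure D4:**
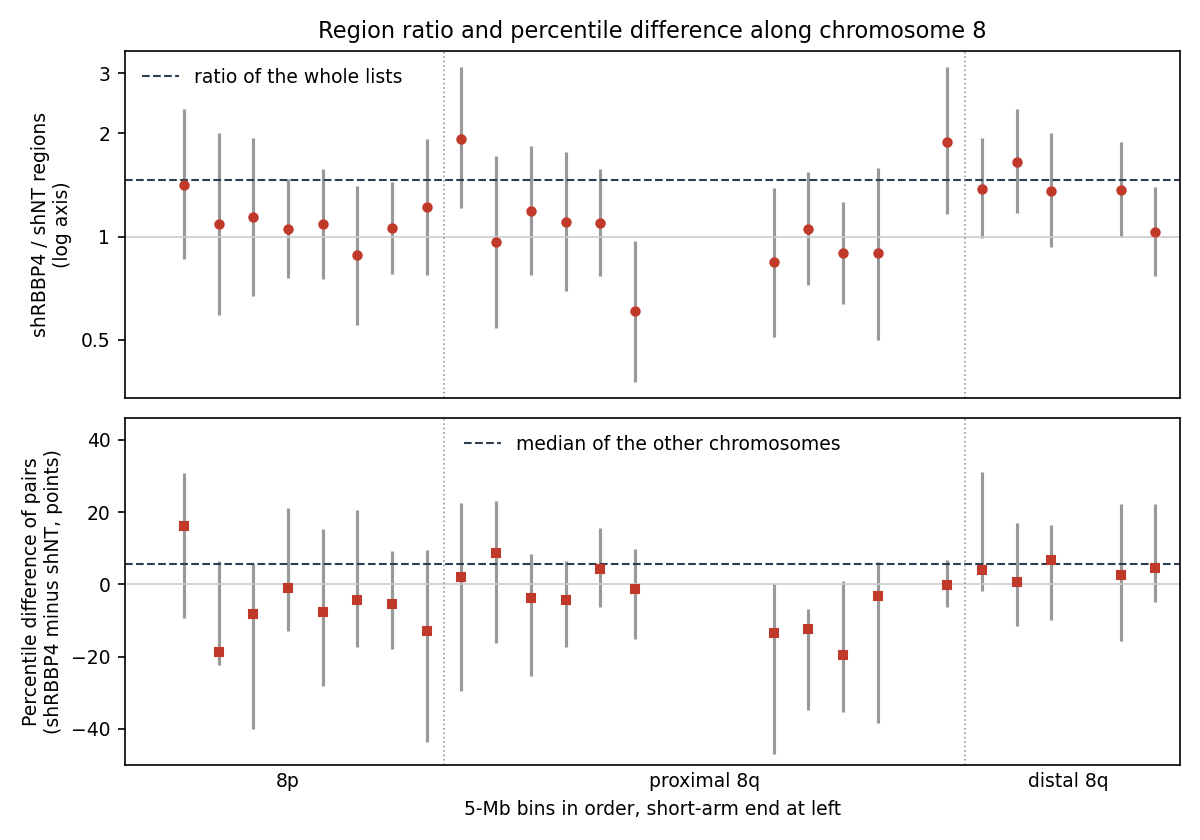
Upper panel, ratio of shRBBP4 to shNT regions (log axis) in the 24 bins of 5 Mb with at least 40 regions, with exact 95% intervals for counting error. Lower panel, median percentile difference of matched pairs, shRBBP4 minus shNT, with quartiles, in the bins with at least 10 pairs. The lowest ratio is 0.608, and the lowest median, -19.5 points, belongs to the bin from 100 to 105 Mb.

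The stretch from 90 to 110 Mb was singled out after its bins had been seen. Among bins of the chromosome with at least 10 pairs, it held the one with the lowest median difference. It had 185 regions in shRBBP4 and 199 in shNT, which covered 44.9 kb in shRBBP4 and 68.3 kb in shNT. Of its 110 pairs, 83 stood lower in shRBBP4, against 38.7% of pairs over all chromosomes. By at least 20 points 49 of them (44.5%) stood lower, against 15.6% over all chromosomes, and the median difference was -13.4 points. Without this stretch, 8p and proximal 8q had 792 regions in shRBBP4 and 706 in shNT (ratio 1.12), and a median difference of -1.89 points over 393 pairs. The pair difference outside the stretch was still below the 5.74 points of the other chromosomes, and the ratio below 1.48.

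The bin from 70 to 75 Mb, picked for its deficit in these data, had the lowest ratio of all 465 counted bins, 0.608 (0.376 to 0.968). It held 31 regions in shRBBP4 and 51 in shNT, covering 9.94 kb in shRBBP4 and 17.2 kb in shNT. Because of this choice the interval tests nothing, and it treats regions that lie in groups as independent. With regions of each list joined within 1 kb there were 14 in shRBBP4 and 16 in shNT (ratio 0.875, interval 0.396 to 1.91). Regions of both lists formed 17 joint clusters, of which 11 were held by both libraries and 1 by shRBBP4 alone. The other 5 (29.4%) were held by shNT alone, against 7.26% over all chromosomes. Part of the deficit was 1 cluster. From 72270980 to 72274919, 7 shNT regions covered 2264 bp with none in shRBBP4, the highest of them at percentile 78.4 in shNT. It was the cluster of shNT alone with the most regions on the chromosome; the next had 3. The other cluster of shNT alone with more than 1 region in this bin lay at chr8:71228086-71228636, with 2 regions covering 319 bp.

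Another part lay inside the clusters that both libraries held, where shRBBP4 had 30 regions and shNT 39, and the remainder was in clusters of 1 or 2 regions held by a single library. In 10 of the 11 clusters held by both (90.9%) the shRBBP4 regions covered fewer base pairs, against 27.9% over all chromosomes. From 72753051 to 72757682 there were 4 regions covering 1442 bp in shRBBP4 and 7 covering 2644 bp in shNT, with the highest percentiles at 95.5 in shRBBP4 and 98.2 in shNT. From 72741235 to 72744139 there were 2 regions covering 751 bp in shRBBP4 and 5 covering 1327 bp in shNT. Here the highest percentile was the higher in shRBBP4, 94.5 against 84.1 in shNT. From 71518448 to 71521952 there were 2 regions covering 1272 bp in shRBBP4 and 4 covering 1608 bp in shNT, with percentiles of 98.5 in shRBBP4 and 91.3 in shNT. The strongest cluster of the bin, at chr8:74204385-74206581, had 3 regions in each library, which covered 1319 bp in shRBBP4 and 1997 bp in shNT and reached percentiles 98.9 in shRBBP4 and 99.2 in shNT.

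The remaining clusters of both libraries differed by at most 2 regions. Those at chr8:71313905-71314266, at chr8:73921176-73921951 and at chr8:74903707-74904783 had 2 regions in each library. From 74207588 to 74208972 there were 2 regions in shRBBP4 and 3 in shNT, and the highest percentile was 22.5 in shRBBP4 and 77.6 in shNT. From 74882705 to 74885606 there were 3 in shRBBP4 and 5 in shNT, covering 1275 bp in shRBBP4 and 1363 bp in shNT. Only the clusters at chr8:74789826-74791861 and at chr8:74887925-74890057 had more regions in shRBBP4, 5 and 3, than in shNT, 4 and 2, and there too the shRBBP4 regions covered less. The median difference of the 21 pairs of this bin was -1.31 points. Of them, 4 (19.0%) were at least 20 points lower in shRBBP4, near the 15.6% over all chromosomes.

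**Figure D5:**
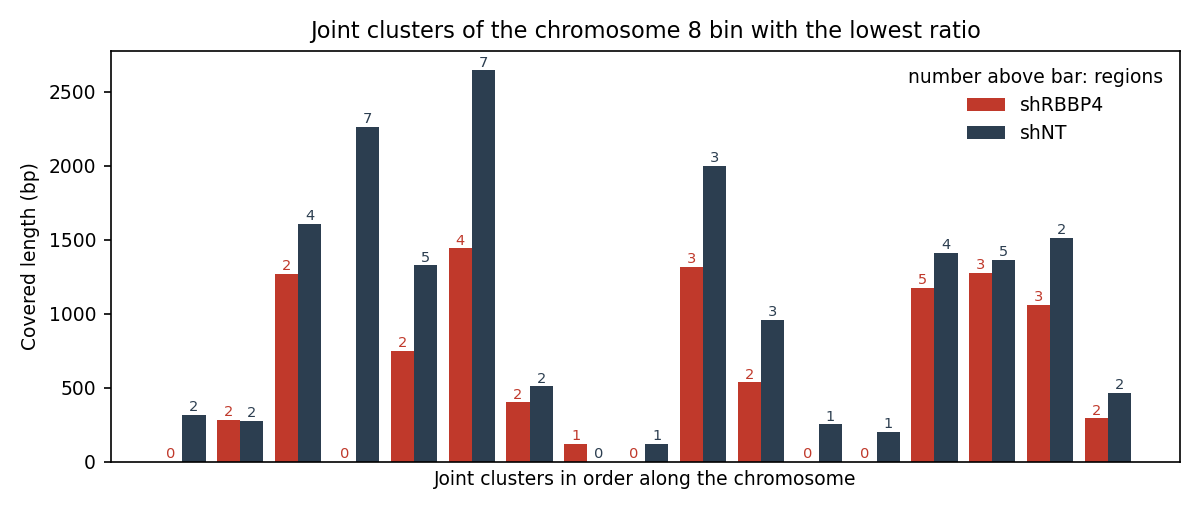
Base pairs covered by shRBBP4 and shNT regions in each of the 17 joint clusters of the bin from 70 to 75 Mb, in order along the chromosome, with the number of regions above each bar. The cluster with 7 shNT regions and no shRBBP4 region covers 2264 bp in shNT, and the shNT bar is the taller in 15 of the 17.

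The window from 120 to 130 Mb of distal 8q, the side of MYC, held 178 regions in shRBBP4 and 118 in shNT (ratio 1.51, interval 1.19 to 1.92), near the 1.48 of the other chromosomes. The regions covered 55.5 kb in shRBBP4 and 35.4 kb in shNT. Of its 79 joint clusters, 42 were held by both libraries, 31 by shRBBP4 alone and 6 by shNT alone. The 39.2% held by shRBBP4 alone compares with 35.0% over all chromosomes, and the 7.59% held by shNT alone with 7.26%. The median difference of its 74 pairs was 2.63 points.

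The cluster with the highest-scoring region of this window lay at chr8:128746571-128752453. It had 6 regions in each library, which covered 4519 bp in shRBBP4 and 2579 bp in shNT. Its highest region stood at percentile 98.9 in both, at chr8:128748591-128749874 in shRBBP4 and at chr8:128748692-128749911 in shNT. Rank was thus alike while the covered length was larger in shRBBP4, mainly through the wide region at chr8:128750602-128752453 named above. Further along, the cluster at chr8:128821504-128824175 had 6 regions covering 1798 bp in shRBBP4 and 2 covering 524 bp in shNT, and that at chr8:128865395-128868288 had 6 covering 1521 bp in shRBBP4 and 2 covering 1300 bp in shNT. These clusters were chosen after their values were seen, and so was the next. The cluster at chr8:128806829-128809848 had 4 regions in each library, covering 2275 bp in shRBBP4 and 2243 bp in shNT, and reached percentile 97.4 in shRBBP4 and 93.2 in shNT.

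The other leading regions of the window were shared as well. The shRBBP4 regions at chr8:125551461-125552434, at chr8:124429352-124429927 and at chr8:121456388-121457330 stood at percentiles 98.2, 97.7 and 97.2, and their best shNT partners at 97.8, 93.6 and 98.8. The shNT regions at chr8:125486583-125486759 and at chr8:120844541-120845015 stood at 98.7 and 98.02 in shNT and had partners at 96.3 and 96.6 in shRBBP4.

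Strong regions found in 1 library alone were few. In shRBBP4 the 5 highest-scoring regions of the chromosome with no shNT region within 1 kb were all on 8q beyond 119 Mb. They lay at chr8:127836989-127837152, at chr8:124683538-124683684, at chr8:128912032-128912271, at chr8:119016708-119016832 and at chr8:119023934-119024307, at percentiles between 89.6 and 94.5. In shNT the highest-scoring one was on 8p, at chr8:42196014-42196193, at percentile 93.6. The next stood on distal 8q at chr8:124890479-124890665 at percentile 88.4, on 8p at chr8:22240845-22241127 at 83.2, and on proximal 8q at chr8:95907121-95907416 and at chr8:71228086-71228265 at 82.7 and 82.6. Above percentile 90, 4 of 95 shRBBP4 regions of the chromosome had no counterpart within 1 kb, 3 of them on distal 8q, and 1 of 134 in shNT. These were 4.21% in shRBBP4 and 0.746% in shNT, against 2.81% in shRBBP4 and 0.117% in shNT on the other chromosomes.

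Chromosomes 7, 13, 16 and X, which also had low ratios, had median differences below 0 as well. The median percentile difference was -1.46 points on chromosome 7, -3.07 on 13, -0.615 on 16 and -7.84 on X, against -1.22 on chromosome 8. The share of pairs at least 20 points lower in shRBBP4 was 24.7% on chromosome 7, 21.4% on 16 and 33.8% on X. The shRBBP4 region was the narrower in 55.0% of pairs on chromosome 7, 48.4% on 16 and 52.9% on X, against 54.1% on chromosome 8. Clusters of shNT alone made up 13.7% on chromosome 7, 9.40% on 16 and 17.9% on X, against 15.0% on chromosome 8. Neither the low rank of matched regions nor these shares were therefore seen on chromosome 8 alone.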

How the data were processed

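H3K9ac ChIP-seq was described in 4 T98G samples, and the region list of each H3K9ac library was used. The inputs were not analysed here. The authors deposited 1 list per library. Per the file headers, the track lines contain the terms macs2 and PE, while the submitters' processing notes name bcl2fastq 2.15.0, BWA, Picard, SICER, GRCh37 and hg19 with no role. The caller behind the lists, its threshold and the use of an input are not given in these sources. The deposited score comes from the authors on an unstated scale, with a lowest value of 2.00 in shRBBP4 and 2.09 in shNT, so it served only to rank regions within a list. Read depth is unknown.

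Overlap, joining and matching functions were written in Python 3.11.15 with scipy 1.17.1, pandas 2.3.3, numpy 2.4.6 and matplotlib 3.10.9 and tested on simulated lists. Regions and bins were assigned by midpoint. Intervals are exact Clopper-Pearson, exact conditional or order-statistic intervals at 95% and cover counting error only, treating regions that lie in groups as independent. No p-value was computed, because each shRNA has 1 H3K9ac library. Regions are named by position, by rules on score, width, percentile difference and window, and clusters by window or as stated. The gene table at hand is on GRCh38.p14, so no region was assigned to a gene. The chromosome, its stretches and the rules were chosen with earlier results of these data known. Alternatives were joined regions, lists of equal length, the higher-scoring 50% of each list, covered length, other overlap, joining and bin rules, ranks by width and ranks among pairs.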

Additional observations from a re-analysis of the deposited data

How the results depend on the processing

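No paired analysis was possible because each shRNA has 1 H3K9ac library, and no library could be left out. Cutting the shRBBP4 list to the length of the shNT list moved the region ratio of chromosome 8 to 0.736 and that of distal 8q to 0.895, and the ratio of clusters of shRBBP4 alone to those of shNT alone to 0.665 against 1.72. Relative to the other chromosomes these region ratios were 0.727 and 0.884, against 0.775 and 0.900 in the full lists. On chromosome 8 the share of regions with an overlap became 66.9% in shRBBP4 and 52.1% in shNT in lists of equal length, and 30.03% in shRBBP4 and 34.5% in shNT with reciprocal overlap of 50%. Between the higher-scoring 50% of both lists the shNT share was 62.1%. The median percentile difference on chromosome 8 was -6.09 points in lists of equal length, -3.52 in the higher-scoring 50% and -7.97 when ranks were taken among matched pairs alone, an alternative chosen after seeing the data. On the other chromosomes it was then 0.327, 5.28 and 0.00847. On distal 8q it turned to -1.65 in lists of equal length and to -1.47 among matched pairs, against 3.06. Wider or joined units left fewer bins by construction: 12 of 15 bins of 10 Mb and 11 of 12 bins of joined regions lay below the whole-list ratio. Over all chromosomes 51.1% of 284 bins of 10 Mb and 50.2% of 295 bins of joined regions did. Joined regions gave the bin from 70 to 75 Mb 14 clusters in shRBBP4 and 16 in shNT (ratio 0.875, interval 0.396 to 1.91), against 31 regions in shRBBP4 and 51 in shNT. In the higher-scoring 50% of each list the ratio of distal 8q was 1.53, 1.03 times that of the other chromosomes, and those of 8p and proximal 8q were 0.683 and 0.644 times it. Unknown depth limits every count.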

Other observations

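Chromosome 8 had long stretches without a region in either library. The longest, on 8q at chr8:110553293-117484311, spanned 6.93 Mb, and on 8p none was called at chr8:1771394-6263586, 4.49 Mb. The first of these parts the stretch from 90 to 110 Mb, where 83 of 110 matched pairs stood lower in shRBBP4 (38.7% over all chromosomes), from the bin between 115 and 120 Mb, where 51 regions were called in shRBBP4 and 27 in shNT.

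Clusters held by shRBBP4 alone reached 5 regions on both arms. The one at chr8:60028452-60031668 on proximal 8q covered 2582 bp and reached percentile 85.2. On 8p the cluster at chr8:6404269-6405999 covered 844 bp, and on proximal 8q the cluster at chr8:49229644-49232031 covered 778 bp. Near it lay the largest rise in percentile, at chr8:49321342-49321875, in the bin from 45 to 50 Mb, where the ratio of regions was 1.93 (1.21 to 3.14). The widest joint cluster of the chromosome, on 8p at chr8:38852974-38862854, spanned 9881 bp and was held by both libraries, with 11 regions covering 4529 bp in shRBBP4 and 14 covering 4319 bp in shNT. All of these were picked after their values were seen and have no replicate check.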
